A study of Mus musculus with 9 samples.

Results

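The Norrin pathway of retinal vessels was followed through 10 genes, taken by symbol from the table of all genes: Ndp, Fzd4, Lrp5, Lrp6, Tspan12, Ctnnb1, Lef1, Axin2, Sox17 and Apcdd1. All 10 were found among the 25108 genes and gene models measured, and all 10 were among the 15678 genes that passed the filter on low values. Retinal RNA of C57BL/6 mice at postnatal day 17 was sequenced in 9 libraries of 3 groups with 3 libraries each. OIR KO was the IL-19 knockout with oxygen-induced retinopathy (OIR), OIR WT was the wild type with the same retinopathy, and RA WT was the wild type in room air. In this model newborn mice breathe high oxygen, which prunes the growing retinal vessels. The return to room air then leaves a hypoxic retina that sprouts new vessels. Knockout mice in room air were not analysed here, so the genotypes were compared only within retinopathy, and the labels do not describe how the knockout allele was made. Separate animals or pools are not named, so every p-value reflects only the variation among these libraries, part of which may be technical.

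Norrin is a secreted protein, made in the retina mainly by Müller glia, that binds the receptor Frizzled-4 on endothelial cells although it is not itself a Wnt. The co-receptors Lrp5 and Lrp6 and the tetraspanin Tspan12 complete the receptor complex, and its activation keeps β-catenin from being degraded, so that it enters the nucleus and acts with TCF and LEF factors. In mice and humans this pathway is needed for the retinal capillary beds and for the blood-retinal barrier, and its loss causes Norrie disease and familial exudative vitreoretinopathy.

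Il19, the targeted gene, was listed at 0 in all 3 OIR KO libraries and all 3 OIR WT libraries, and in RA WT it was at 0.0406 FPKM in 1 library and listed at 0 in the other 2, so its level could not check the genotype labels. FPKM counts fragments per kilobase of gene, scaled to the mapped fragments of the library. Libraries of 1 group correlated across genes with r from 0.974 to 0.985. The Y-linked gene Ddx3y was listed at 0 in OIR KO 1 and RA WT 2. It was at 6.80 FPKM in RA WT 3 and between 12.9 and 15.7 FPKM in the remaining libraries. Eif2s3y, Kdm5d and Uty, also Y-linked, were likewise at 0 in OIR KO 1 and RA WT 2 only. Libraries of RA WT and of OIR KO thus did not all come from the same animals. Y-linked RNA, which marks male tissue, was present in all 3 OIR WT libraries, so the groups were not balanced for sex. The lens crystallin gene Cryaa was highest in OIR KO 2 (7.68 FPKM) and RA WT 1 (11.7 FPKM). Defining endothelial markers were present in every library, with Pecam1 between 4.03 and 14.7 FPKM. Absolute depth is unknown, because the table holds no counts.

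None of the 10 genes changed by the test in any comparison. Of 112 other tested genes on Wnt pathway lists, 33 did between OIR WT and RA WT (29.5% against 16.0% of all genes). Among the 33, 7 risen and 6 fallen were endothelial genes reported to depend on Norrin or β-catenin, and 21 calls were lost in at least 1 alternative fit. The lists were chosen with earlier results of these data known. Differences were tested as log2(FPKM + 0.5) with limma over all 15678 genes, and a gene was called at an adjusted p under 0.05 (Benjamini-Hochberg). Between OIR WT and RA WT limma called 0 of the 10 genes, against 16.0% of all genes tested (8.04% risen and 7.92% fallen), and at an unadjusted p under 0.05 it had 2 of 10 against 30.4% of all genes. For OIR KO against RA WT the call was 0 of 10 against 10.4% of all genes (4.75% risen and 5.69% fallen), with 1 of 10 at an unadjusted p under 0.05 against 27.6%. In OIR KO against OIR WT it was 0 of 10 against 0.134% (0.0574% risen and 0.0765% fallen), with 0 of 10 against 9.91% at an unadjusted p under 0.05. The median log2 difference of the 10 genes was -0.08 for OIR WT against RA WT, 0.11 for OIR KO against OIR WT and 0.02 for OIR KO against RA WT, where the medians over all genes were 0.01, 0.00 and 0.03. These comparisons share libraries and are not independent of each other. The panels of FPKM by library show how close the groups lay.

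**Figure D1:**
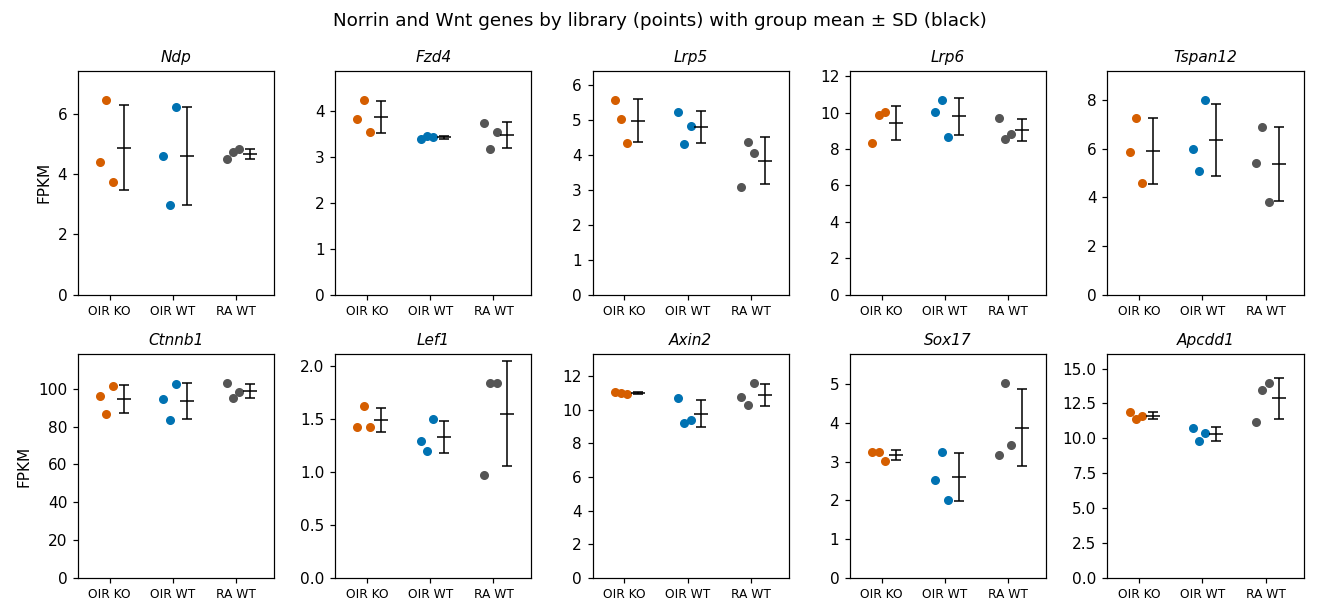
FPKM of the 10 genes (vertical axes, each from 0) in the 3 libraries of OIR KO, OIR WT and RA WT, with the group mean ± SD (n = 3) in black beside the points. Apcdd1 is the panel in which the OIR WT libraries lie wholly below those of RA WT, and Ndp and Tspan12 spread widely within OIR KO and OIR WT.

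Ndp (ENSMUSG00000040138, GRCm38 X:16885521-16911774, minus strand) encodes the ligand Norrin. It was at 4.41, 6.46 and 3.74 FPKM in OIR KO 1, 2 and 3, at 4.58, 2.96 and 6.23 FPKM in OIR WT 1, 2 and 3, and at 4.50, 4.72 and 4.82 FPKM in RA WT 1, 2 and 3. The RA WT libraries lay close together inside the range of both retinopathy groups, which each held 1 high library. Group means were 4.87 ± 1.41 FPKM in OIR KO, 4.59 ± 1.63 FPKM in OIR WT and 4.68 ± 0.166 FPKM in RA WT (SD, n = 3 each). The log2 difference of OIR WT from RA WT was -0.08 (SE 0.24, 95% interval -0.62 to 0.47, limma adjusted p = 0.866), so changes of Ndp within those bounds were not excluded. It was 0.10 for OIR KO against OIR WT, with an interval from -0.45 to 0.64, and 0.02 for OIR KO against RA WT. Each of these 3 differences turned its sign when 1 library was left out, -0.08 to 0.18 without OIR WT 2, 0.10 to -0.15 without OIR WT 2 and to -0.11 without OIR KO 2, and 0.02 to -0.18 without OIR KO 2. Müller glia markers, the list for the cells that make Norrin, fell in 6 of 15 and rose in 3 of 15 members in OIR WT against RA WT. Over all genes tested, 7.92% fell and 8.04% rose there. Summed FPKM of the Müller glia markers lay between 2474 and 2660 in OIR KO, between 1966 and 2203 in OIR WT and between 2539 and 3350 in RA WT, with no member listed at 0. In bulk tissue, fewer cells of a type and less RNA per cell cannot be told apart.

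Fzd4 (ENSMUSG00000049791, 7:89404355-89413134, plus strand) encodes Frizzled-4, the receptor of Norrin. Its levels were 3.84, 4.25 and 3.54 FPKM in OIR KO 1 to 3, 3.40, 3.47 and 3.43 FPKM in OIR WT 1 to 3, and 3.73, 3.17 and 3.54 FPKM in RA WT 1 to 3. The OIR WT values were nearly equal and lay within the RA WT range, and every OIR KO library was above every OIR WT library. Fzd4 differed by log2 -0.01 between OIR WT and RA WT (SE 0.11, 95% interval -0.27 to 0.24, limma adjusted p = 0.949). That sign turned to 0.03 without RA WT 1. For OIR KO against OIR WT the log2 difference was 0.15 (SE 0.11, 95% interval -0.10 to 0.41, limma adjusted p = 0.721).

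Lrp5 and Lrp6 encode the co-receptors, of which Lrp5 is the main one for Norrin in retinal vessels. Lrp5 (ENSMUSG00000024913, 19:3584828-3686564, minus strand) was at 5.57, 5.04 and 4.34 FPKM in OIR KO 1 to 3, at 5.23, 4.31 and 4.83 FPKM in OIR WT 1 to 3, and at 3.08, 4.37 and 4.06 FPKM in RA WT 1 to 3. RA WT 1 held the lowest value, and RA WT 2 reached into the range of both retinopathy groups. The log2 difference of Lrp5 was 0.35 in OIR KO against RA WT (SE 0.15, 95% interval 0.01 to 0.68), with an unadjusted limma p of 0.0422 that did not survive adjustment (adjusted p = 0.165). In OIR WT against RA WT it was 0.30 (adjusted p = 0.210). Without RA WT 1 these differences were 0.21 for OIR KO and 0.16 for OIR WT. Lrp6 (ENSMUSG00000030201, 6:134446476-134566965, minus strand) was at 8.34, 9.87 and 10.1 FPKM in OIR KO 1 to 3, 10.01, 10.7 and 8.67 FPKM in OIR WT 1 to 3, and 9.72, 8.56 and 8.83 FPKM in RA WT 1 to 3. Its groups overlapped in every comparison, and the largest of its log2 differences was 0.11, for OIR WT against RA WT (95% interval -0.14 to 0.36, limma adjusted p = 0.563).

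Tspan12 (ENSMUSG00000029669, 6:21771395-21852515, minus strand) encodes the tetraspanin that strengthens Norrin signalling through Frizzled-4. It was at 5.87, 7.26 and 4.57 FPKM in OIR KO 1 to 3, at 5.99, 5.07 and 8.001 FPKM in OIR WT 1 to 3, and at 5.41, 6.87 and 3.82 FPKM in RA WT 1 to 3. All 3 groups overlapped and varied alike, with coefficients of variation of 22.8% in OIR KO, 23.5% in OIR WT and 28.5% in RA WT. OIR KO 2 and OIR WT 3 were the highest library of their group for both Tspan12 and Ndp. The log2 difference of Tspan12 in OIR WT against RA WT was 0.24, with a 95% interval from -0.28 to 0.76 (limma adjusted p = 0.535), the highest upper bound among the 10 genes in that comparison. With 1 library left out it ran from 0.03 to 0.42.

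Ctnnb1 and Lef1 carry the signal into the nucleus. Ctnnb1 (ENSMUSG00000006932, 9:120929216-120960507, plus strand) encodes β-catenin, which also joins cadherins at cell junctions and is made by most cell types. It was at 96.3, 86.5 and 101 FPKM in OIR KO 1 to 3, 94.5, 83.5 and 102 FPKM in OIR WT 1 to 3, and 103, 95.2 and 98.4 FPKM in RA WT 1 to 3. No library lay further than 1.23-fold from any other, and the log2 difference of OIR WT from RA WT was -0.09 (95% interval -0.31 to 0.14, limma adjusted p = 0.603). RNA levels do not report the stability of the β-catenin protein, which is the step the pathway controls. Lef1 (ENSMUSG00000027985, 3:131110471-131224356, plus strand) encodes a transcription factor partner of β-catenin. It was at 1.42, 1.62 and 1.43 FPKM in OIR KO 1 to 3, at 1.29, 1.20 and 1.498 FPKM in OIR WT 1 to 3, and at 0.974, 1.83 and 1.84 FPKM in RA WT 1 to 3. RA WT 1 was the lowest of all 9 libraries while RA WT 2 and 3 were the highest, so the RA WT range enclosed both retinopathy groups. Lef1 differed by log2 -0.14 between OIR WT and RA WT (SE 0.19, 95% interval -0.56 to 0.29, limma adjusted p = 0.671). With 1 library left out the difference ran from -0.36 to -0.03.

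Axin2, Sox17 and Apcdd1 act downstream. Axin2 (ENSMUSG00000000142, 11:108920349-108950783, plus strand), a target of β-catenin that feeds back on it as part of the destruction complex, was at 11.06, 11 and 10.93 FPKM in OIR KO 1 to 3, at 10.7, 9.19 and 9.39 FPKM in OIR WT 1 to 3, and at 10.8, 10.3 and 11.6 FPKM in RA WT 1 to 3. The OIR KO values were nearly equal and lay above all OIR WT values, while OIR WT 1 overlapped RA WT. The log2 difference was -0.15 for OIR WT against RA WT (SE 0.09, 95% interval -0.35 to 0.05, limma adjusted p = 0.287). OIR KO differed from OIR WT by 0.17 (SE 0.09, 95% interval -0.03 to 0.37, adjusted p = 0.593).

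Sox17 (ENSMUSG00000025902, 1:4490931-4497354, minus strand) encodes an endothelial transcription factor linked to arterial fate and, in retinal endothelium, to Norrin signalling. It was at 3.26, 3.24 and 3.01 FPKM in OIR KO 1 to 3, at 2.52, 3.25 and 2.01 FPKM in OIR WT 1 to 3, and at 3.18, 5.03 and 3.43 FPKM in RA WT 1 to 3. RA WT 2 stood highest and OIR WT 3 lowest, and only OIR WT 2 reached the RA WT range. The log2 difference of OIR WT from RA WT was -0.50 (SE 0.19, 95% interval -0.92 to -0.08), the largest in size among the 10 genes, with limma p values of 0.0251 unadjusted and 0.105 adjusted. It ran from -0.64 without OIR WT 2 to -0.32 without RA WT 2, the library highest in Sox17. It was not called under any of 20 alternative settings (adjusted p = 0.0566 to 0.289). OIR KO differed from OIR WT by log2 0.26 (95% interval -0.16 to 0.69, adjusted p = 0.696).

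Apcdd1 (ENSMUSG00000071847, 18:62922231-62961179, plus strand) encodes a membrane inhibitor of Wnt signalling that is itself induced by the pathway in retinal endothelium. It was at 11.9, 11.4 and 11.6 FPKM in OIR KO 1 to 3, at 10.8, 9.81 and 10.4 FPKM in OIR WT 1 to 3, and at 11.2, 13.5 and 13.95 FPKM in RA WT 1 to 3. All OIR WT libraries lay below all RA WT libraries and below all OIR KO libraries, while OIR KO overlapped RA WT. Means were 10.3 ± 0.476 FPKM in OIR WT and 12.9 ± 1.48 FPKM in RA WT, a log2 difference of -0.30 (SE 0.10, 95% interval -0.52 to -0.08, limma adjusted p = 0.0674, lower in 3 of 3 OIR WT libraries). This missed the threshold, and the call depended on RA WT 1, the RA WT library lowest in Apcdd1. Without RA WT 1 the log2 difference was -0.39 and the gene was called (adjusted p = 0.0251), also with OIR KO 2 left out as well (adjusted p = 0.0278), and with quantile normalization it was -0.33 (adjusted p = 0.0371). Over the 20 alternatives the adjusted p ranged from 0.0251 to 0.178. In OIR KO against OIR WT the log2 difference was 0.17 (SE 0.10, 95% interval -0.05 to 0.39, adjusted p = 0.632).

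Apcdd1 was thus 1 of 10 genes whose OIR WT and RA WT libraries did not overlap, where 35.0% of all genes tested did not overlap (17.8% higher and 17.2% lower). Between OIR KO and OIR WT the libraries of Fzd4, Axin2 and Apcdd1 did not overlap, all 3 higher in OIR KO, against 17.7% of all genes in either direction with 9.73% higher and 7.98% lower. For OIR KO against RA WT it was 0 of 10, against 32.7% (17.3% higher and 15.4% lower). The plot of log2 differences shows which interval sizes lie behind these counts.

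**Figure D2:**
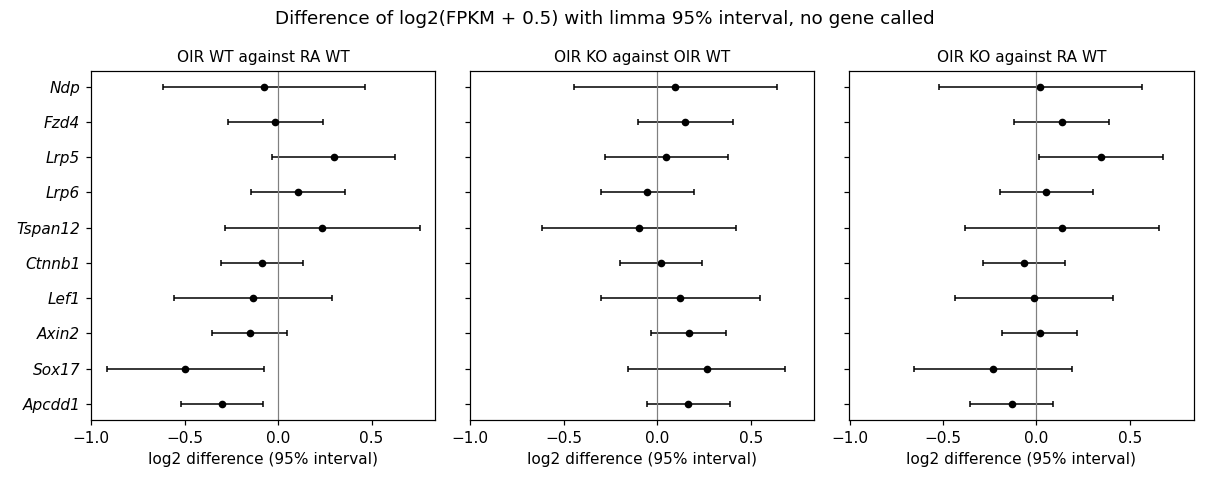
Difference of log2(FPKM + 0.5) with its limma 95% interval (horizontal axis) for the 10 genes in the comparisons OIR WT against RA WT, OIR KO against OIR WT and OIR KO against RA WT. Intervals of Sox17 and Apcdd1 in the left panel and of Lrp5 in the right panel leave out 0, yet no gene passed the threshold after adjustment (n = 3 libraries per group).

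By level per length, Ctnnb1 stood first and Lef1 last in all 3 groups, with group means of 94.7 and 1.49 FPKM in OIR KO. Apcdd1, Axin2 and Lrp6 took ranks 2 to 4. The neighbours among these did not overlap in OIR KO, while in OIR WT each overlapped the next, and in RA WT Apcdd1 overlapped Axin2 while Axin2 lay above Lrp6. Tspan12 took rank 5 in each group and overlapped the gene below it. Among Lrp5, Ndp, Fzd4 and Sox17 the order differed between groups. In OIR KO and OIR WT it ran Lrp5, Ndp, Fzd4, Sox17 with overlap between neighbours except Fzd4 and Sox17, and in RA WT it ran Ndp, Sox17, Lrp5, Fzd4 with every neighbouring pair overlapping. Over all 9 libraries the highest value was 2.50 times the lowest for Sox17, 2.18 times for Ndp and 2.10 times for Tspan12, and 1.23 to 1.89 times for the other 7 genes.

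The profile of a gene over the 9 libraries was compared with every other by the root mean square difference of log2 values, each centred on its own mean. Apcdd1, which itself spread by 0.149 around its mean, lay nearest to Grik5 (0.032), Gatb (0.035) and Efnb1 (0.039) among 12376 genes of at least 1 FPKM on average. For Sox17, with a spread of 0.287, the nearest were Cgn (0.123), Nlgn1 (0.127) and Rin2 (0.130). Ndp came nearest to Nelfe (0.107), Itga3 (0.127) and Ccdc9b (0.130), and Tspan12 to Ttc23 (0.101), Rpp38 (0.126) and Dbi (0.134). Lrp5 was closest to Rps20 (0.071), Svbp (0.073) and Rasip1 (0.073), and Lef1 to Asb6 (0.068), Nap1l4 (0.075) and Ppp1r16a (0.075). The 4 genes of least spread, 0.099 to 0.114, came near genes that varied little. They were Fzd4 with Taf2 (0.040), Strn (0.057) and Rhot1 (0.061), Lrp6 with Akap10 (0.032), Lifr (0.050) and Rhobtb1 (0.052), Ctnnb1 with B3galt4 (0.033), Fnta (0.044) and Pigk (0.051), and Axin2 with Nat10 (0.044), Pcif1 (0.050) and Dhodh (0.052). Within the pathway, Ndp and Tspan12, with spreads of 0.289 and 0.292, were each other's nearest gene (0.255). Fzd4 and Axin2 were so too, but at a distance (0.108) above the spread of either gene (0.1 each). Apcdd1 lay as near to Axin2 (0.108), and it was the nearest gene for Lef1 (0.145) and Sox17 (0.221).

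No promoter window of Lrp5, Lrp6, Sox17 or Apcdd1 was searched, so the promoters of these genes are not described here. Promoter windows from RefSeq (build GRCm38.p6, 250 bases before to 50 after a gene start) were taken for 6 of the 10 genes. These were the windows of Ndp, Fzd4, Tspan12, Ctnnb1, Lef1 and Axin2. Each was searched on both strands for CTTTGA, a form of the core bound by TCF and LEF factors, which 16.0% of all 32851 promoter windows hold. Other forms, such as CTTTGT, were not searched. The ligand gene and 2 genes read out by β-catenin are printed 5′ to 3′ on the gene's strand, since their levels are the pathway's input and output, with matches in capitals.
Ndp, chrX:16911725-16912024, minus strand: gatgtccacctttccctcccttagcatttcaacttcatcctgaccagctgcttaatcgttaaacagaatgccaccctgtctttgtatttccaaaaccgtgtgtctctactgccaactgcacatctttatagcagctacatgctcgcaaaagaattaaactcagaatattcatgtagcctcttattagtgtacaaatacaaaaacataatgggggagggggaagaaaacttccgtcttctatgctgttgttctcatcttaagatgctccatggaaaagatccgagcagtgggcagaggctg
Axin2, chr11:108920099-108920398, plus strand: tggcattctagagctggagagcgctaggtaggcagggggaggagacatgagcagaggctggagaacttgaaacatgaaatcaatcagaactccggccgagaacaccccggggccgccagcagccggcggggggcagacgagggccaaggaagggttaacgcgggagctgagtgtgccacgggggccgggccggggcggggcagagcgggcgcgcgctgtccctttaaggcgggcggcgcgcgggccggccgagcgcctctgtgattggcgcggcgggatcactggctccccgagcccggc
Lef1, internal start, chr3:131156044-131156343, plus strand: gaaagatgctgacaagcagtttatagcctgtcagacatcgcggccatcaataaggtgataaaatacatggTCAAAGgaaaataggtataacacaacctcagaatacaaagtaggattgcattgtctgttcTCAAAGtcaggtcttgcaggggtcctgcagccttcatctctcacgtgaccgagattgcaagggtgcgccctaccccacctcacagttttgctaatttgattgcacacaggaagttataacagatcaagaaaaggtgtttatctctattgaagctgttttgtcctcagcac
The Lef1 window at the internal start held 2 matches, beginning 180 and 120 bases before the start, both on the opposite strand as TCAAAG. The other 3 Lef1 windows and those of Ndp, Fzd4, Tspan12, Ctnnb1 and Axin2 held 0 matches to CTTTGA. The hypoxia response core ACGTG, present in 19.6% of all windows, had 0 matches in the Ndp, Fzd4, Tspan12, Ctnnb1 and Axin2 windows and a pair of overlapping ones, on opposite strands, in the Lef1 window printed. Its other form GCGTG, present in 32.4% of all windows, had 1 match in the Fzd4 window and 0 in those of the other genes except Ctnnb1. The 2 Ctnnb1 windows overlap and held 1 and the same site in their shared stretch. The SOX core ATTGTT, present in 10.7%, had 0 matches in all 10 windows of the 6 genes. These matches describe the letters in the windows and no binding was measured.

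Endothelial markers moved between the groups, so each gene was also expressed relative to them, as its log2(FPKM + 0.5) minus the mean log2 of 25 pan-endothelial markers. That mean was 2.27 to 2.82 in OIR KO, 1.96 to 2.36 in OIR WT and 1.88 to 2.20 in RA WT, with RA WT 1 lowest. Of the 25 markers, 12 rose and 2 fell in OIR KO against RA WT, against 4.75% and 5.69% of all genes. Between OIR WT and RA WT 6 rose and 4 fell, against 8.04% and 7.92% of all genes. The 4 that fell in OIR WT, Slco1a4, Ly6c1, Abcb1a and Tek, lower the mean of this group. Summed FPKM of the 25 markers was 185 to 263 in OIR KO, 149 to 200 in OIR WT and 133 to 171 in RA WT, with none listed at 0. Relative Apcdd1 was 1.09 to 1.41 in OIR WT and 1.62 to 1.66 in RA WT, a log2 difference of -0.41 (exact two-sided permutation p = 0.1, the smallest that 3 against 3 libraries allow). It was the only 1 of the 10 genes whose relative levels did not overlap between OIR WT and RA WT, where 26.4% of all genes did not and 16.7% were lower. Relative Sox17 lay between -1.03 and -0.05 in OIR WT and between -0.23 and 0.28 in RA WT, with a difference of -0.61 (exact permutation p = 0.2).

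For OIR KO against RA WT, 5 of the 10 relative levels did not overlap, those of Ndp, Lef1, Axin2, Sox17 and Apcdd1, all lower in OIR KO, where 44.7% of all genes did not overlap and 41.4% were lower. The 5 differences ran from -0.68 for Sox17 to -0.42 for Ndp (exact permutation p = 0.1 each). Between OIR KO and OIR WT it was 1 of 10, Tspan12, lower in OIR KO by 0.43 (exact permutation p = 0.1), against 27.8% of all genes, with 27.5% lower. These shares were near or below those of all genes. The mean of 5 markers (Pecam1, Cdh5, Erg, Tie1 and Esam) was 2.73 to 3.34 in OIR KO, 2.37 to 2.92 in OIR WT and 1.81 to 2.41 in RA WT. With it in place of the mean of 25, 6 of 10 did not overlap in OIR WT against RA WT, all lower, against 43.4% of all genes with 40.0% lower. It was then 9 of 10 in OIR KO against RA WT, against 73.6% with 72.7% lower, and 1 of 10 in OIR KO against OIR WT, against 19.9% with 19.7% lower. The counts also moved with single libraries. For OIR WT against RA WT the count was 6 without OIR WT 2, 3 without OIR WT 3 or RA WT 2, and 2 without RA WT 1 or RA WT 3. For OIR KO against RA WT it was 8 without OIR KO 3. For OIR KO against OIR WT it was 5 without OIR KO 3, and 2 without OIR KO 1, OIR KO 2, OIR WT 2 or OIR WT 3.

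**Figure D3:**
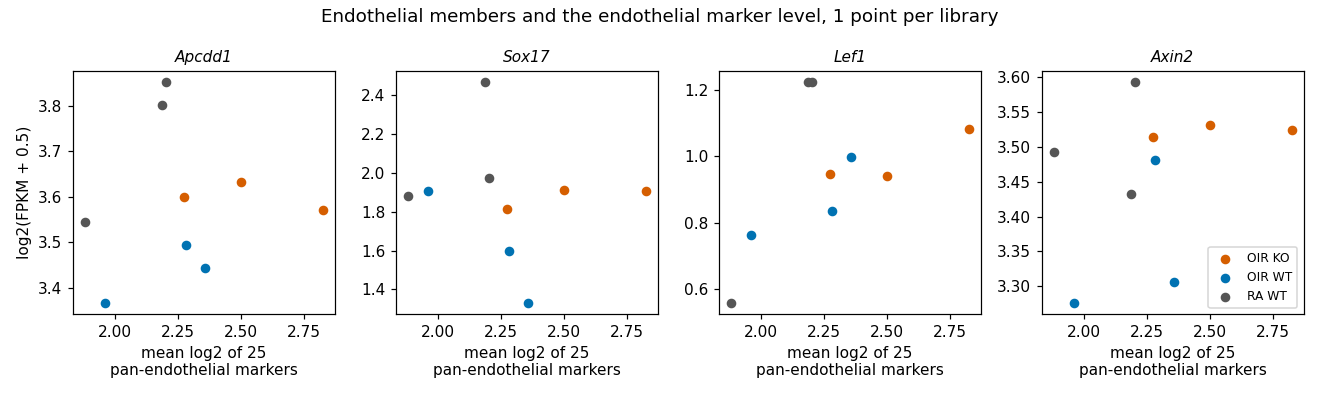
Level of Apcdd1, Sox17, Lef1 and Axin2 as log2(FPKM + 0.5) (vertical axes, each with its own range) against the mean log2 of 25 pan-endothelial markers (horizontal axis), 1 point per library of OIR KO, OIR WT and RA WT. For Apcdd1 the OIR WT points lie below the RA WT points over an overlapping range of this 25-marker mean. RA WT 1 is the point lowest in the markers.

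The rest of the pathway was described by lists of 136 further genes, of which 112 were tested. Between OIR WT and RA WT, 14 rose and 19 fell, or 29.5% of those tested against 16.0% of all genes, with a median log2 difference of -0.01 against 0.01 over all genes. These lists were chosen with earlier results of these data known, so their shares are no independent support. Among 6 tested Wnt ligands of 19, Wnt9b fell to 0.543 ± 0.167 FPKM in OIR WT, against 1.61 ± 0.0303 FPKM in RA WT (log2 -1.03, limma adjusted p = 0.00798), and Wnt9a rose (log2 0.65, adjusted p = 0.0472). Wnt7a and Wnt7b, the ligands that act with Adgra2 and Reck on brain endothelium and named here after their values were seen, did not pass the filter. Of 16 receptors and cofactors 4 fell and 0 rose, against 7.92% and 8.04% of all genes. Fzd5, the Frizzled receptor known from the developing eye, was at 7.26, 7.24 and 7.68 FPKM in OIR WT 1 to 3 and at 10.2, 10.9 and 10.7 FPKM in RA WT 1 to 3 (log2 -0.49, SE 0.08, adjusted p = 0.00526). Reck, which presents Wnt7 ligands to Frizzleds, fell to 3.53 ± 0.810 FPKM in OIR WT, against 6.21 ± 0.892 FPKM in RA WT (log2 -0.75, adjusted p = 0.0159). Fzd9 (log2 -0.74, adjusted p = 0.0273) and the receptor tyrosine kinase gene Ror1 (log2 -0.65, adjusted p = 0.0420) also fell. The Adgra2 gene, likewise named after its values were seen, had 8.15 ± 0.807 FPKM in OIR WT and 7.89 ± 3.27 FPKM in RA WT (adjusted p = 0.793).

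Both called genes of the R-spondin list fell, of 4 tested, the ligand gene Rspo4 (log2 -0.68, limma adjusted p = 0.0211) and the receptor gene Lgr5 (log2 -0.35, adjusted p = 0.0429). In this comparison of OIR WT with RA WT, 7.92% of all genes fell and 8.04% rose. Of 7 tested secreted inhibitors and their receptors 2 fell and 1 rose. Frzb, a secreted Frizzled-related protein, was at 5.51 ± 1.29 FPKM in OIR WT and 9.63 ± 1.12 FPKM in RA WT (log2 -0.77, adjusted p = 0.0165), and Sostdc1 fell by 0.67 on the log2 scale (adjusted p = 0.0309). Kremen1, the receptor through which Dickkopf proteins act on Lrp5 and Lrp6, rose to 19.5 ± 3.40 FPKM in OIR WT, against 9.21 ± 0.746 FPKM in RA WT (log2 1.03, adjusted p = 0.02). Of 23 tested cytoplasmic genes, Apc2 (log2 -0.52, adjusted p = 0.0467) and Dact3 (log2 -0.47, adjusted p = 0.0436) fell, and of 17 TCF factors and co-activators the co-repressor gene Ctbp2 rose (log2 0.38, adjusted p = 0.0336). The shares called in these lists, 8.7% and 5.9%, lay below the 16.0% of all genes.

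Of 13 tested target and feedback genes 4 rose and 2 fell in OIR WT against RA WT, against 8.04% and 7.92% of all genes. The risen ones were Myc (log2 1.31, limma adjusted p = 0.00946), Jun (log2 0.99, adjusted p = 0.00414), the adhesion receptor gene Cd44 (log2 1.81, adjusted p = 0.0337) and the mitotic gene Birc5 (log2 0.99, adjusted p = 0.0413). All 4 are also controlled by many other signals, among them growth and stress. The fallen ones were Id2 (log2 -0.73, adjusted p = 0.0165) and Zcchc12 (log2 -0.69, adjusted p = 0.0375). The 7 tested genes of this list that were not called went both ways. Log2 differences were 1.03 for Ccnd1 (adjusted p = 0.0721), 0.96 for Fosl1 (0.105), 0.14 for the feedback inhibitor gene Nkd2 (0.647) and -0.19 for its paralog Nkd1 (0.448). They were -0.27 for Znrf3 (0.257), -0.30 for Tnfrsf19 (0.304) and -0.62 for the secreted inhibitor gene Notum (0.125). Rnf43 and Sp5 did not pass the filter.

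**Figure D4:**
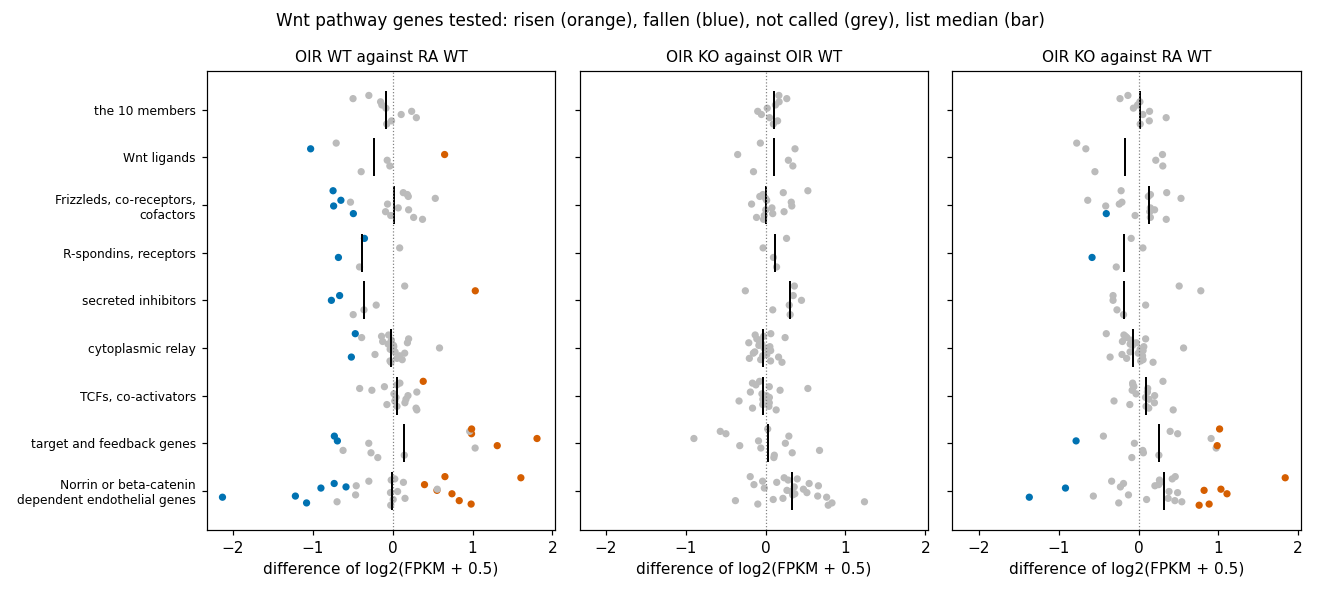
Difference of log2(FPKM + 0.5) (horizontal axis) of each tested gene in the 10-gene set and in 8 lists of Wnt pathway genes, for 3 comparisons, with risen genes in orange, fallen genes in blue, uncalled genes in grey and the list median as a bar. The 10 genes are all grey, the 33 called genes of OIR WT against RA WT lie on both sides of 0, and OIR KO against OIR WT has no called gene.

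Genes reported to depend on Norrin or β-catenin in endothelium of retina or brain went both ways in OIR WT against RA WT, with 7 of 26 risen and 6 fallen, where 8.04% of all genes rose and 7.92% fell. Plvap, a protein of leaky fenestrated vessels that appears where Norrin signalling is lost, rose to 5.55 ± 1.08 FPKM in OIR WT, against 2.56 ± 0.536 FPKM in RA WT (log2 0.98, SE 0.17, limma adjusted p = 0.00599). The glucose transporter gene Slc2a1 (log2 0.83, adjusted p = 0.00534) and Gpihbp1, which anchors lipoprotein lipase in capillaries (log2 1.60, adjusted p = 0.00724), rose too. The leading fallen genes were the barrier transporter gene Slco1c1 (log2 -2.13, adjusted p = 0.000495), Itm2a (log2 -0.73, adjusted p = 0.00394) and Spock2 (log2 -0.90, adjusted p = 0.00550). Slc2a1 and Spock2 are also expressed outside vessels in the retina. The list holds both genes that appear and genes that are lost without this signalling, so its counts and median give no direction of the pathway. The same list in OIR KO against RA WT had 6 of 26 risen, led by Sox7 (log2 0.82, adjusted p = 0.00618), Gpihbp1 (log2 1.84, adjusted p = 0.00619) and Foxf2 (log2 1.11, adjusted p = 0.00867), and 2 fallen, Slco1c1 (log2 -1.37, adjusted p = 0.00430) and Spock2 (log2 -0.92, adjusted p = 0.00721), where 4.75% of all genes rose and 5.69% fell.

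Markers of several cell types moved in the same comparisons. In OIR WT against RA WT, 7 of 13 pericyte, 9 of 14 microglia and 5 of 5 tested erythrocyte markers rose and 0 fell. Pan-endothelial markers had 6 of 25 risen and 4 fallen, and Müller glia markers 3 of 15 risen and 6 fallen. Of rod markers 0 of 14 were called, and 1 of 10 tested pigment epithelium and 1 of 7 tested lens markers fell. Over all genes 8.04% rose and 7.92% fell. In OIR KO against RA WT, 4 of 13 pericyte, 9 of 14 microglia and 0 of 5 erythrocyte markers rose, and 0 fell. Pan-endothelial markers had 12 of 25 risen and 2 fallen there, and Müller glia markers 1 of 15 risen and 3 fallen. Calls were 0 of 14 for rod, 0 of 10 for pigment epithelium and 0 of 7 for lens markers. Over all genes 4.75% rose and 5.69% fell. Summed FPKM of pericyte markers was 357 to 426 in OIR KO, 399 to 464 in OIR WT and 322 to 373 in RA WT. Most of each pericyte sum was Vtn, at 270 to 278 FPKM in OIR KO, 285 to 304.5 in OIR WT and 262 to 319.5 in RA WT. Vtn was not called in OIR WT against RA WT (log2 0.02, limma adjusted p = 0.901), where the median log2 difference of the pericyte list was 0.77. These sums thus hardly follow the other pericyte markers. Summed FPKM of microglia markers was 75.6 to 95.5 in OIR KO, 86.4 to 113 in OIR WT and 36.2 to 43.0 in RA WT. For erythrocyte markers it was 112 to 1070 in OIR KO, 512 to 1431 in OIR WT and 82.5 to 158 in RA WT. In each group 0 markers of the pericyte, microglia and erythrocyte lists were listed at 0 in all 3 libraries. The part of these cell types in the differences of the pathway genes was not tested.

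Outside this endothelial list, 5 genes were called in OIR KO against RA WT. Fzd5 fell (log2 -0.40, limma adjusted p = 0.0151), as did Rspo4 (log2 -0.58, adjusted p = 0.0493) and Zcchc12 (log2 -0.78, adjusted p = 0.0321), while Myc (log2 0.98, adjusted p = 0.0377) and Birc5 (log2 1.01, adjusted p = 0.0494) rose. In all 13 of the 112 tested genes were called, or 11.6% against 10.4% of all genes.

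Of the 33 calls in OIR WT against RA WT, 12 held without each library in turn, among them Wnt9b, Fzd5, Myc, Jun, Plvap, Slc2a1, Gpihbp1, Slco1c1, Itm2a and Spock2. The calls of Reck and Frzb ended when any of RA WT 2, OIR WT 1 and OIR WT 3 was absent (adjusted p = 0.0584 to 0.0690), and Id2 without RA WT 2 or OIR WT 1 (0.0530 and 0.0690). Rspo4 was lost when any of RA WT 2 and 3 and OIR WT 1 and 3 was left out (0.0507 to 0.0842), Kremen1 and Cd44 without any RA WT library or either of OIR WT 1 and 3 (0.0545 to 0.103), and Fzd9 and Sostdc1 without either of RA WT 2 and 3 or any OIR WT library (0.0520 to 0.107). Another 8 of the genes named above were each lost without 6 to 8 of the 9 libraries, with adjusted p there from 0.0505 to 0.15. Among them, Wnt9a and Ctbp2 held only without OIR KO 2 or 3, Zcchc12 only without an OIR KO library, Apc2 only without OIR KO 2, OIR KO 3 or OIR WT 2, and Birc5 only without RA WT 2, OIR KO 2 or OIR KO 3. Ror1 held only without RA WT 1, OIR KO 2 or OIR WT 2, Dact3 only without RA WT 1 or OIR KO 2, and Lgr5 only without RA WT 3. The other 5 lost calls, all of the endothelial list, were Cgnl1, Foxf2, Ppard, Sox7 and Tfrc, each lost without 3 to 7 libraries (0.0509 to 0.114). Of the calls in OIR KO against RA WT, 5 of 13 held without each library in turn: Foxf2, Gpihbp1, Slco1c1, Sox7 and Spock2. Fzd5 was lost without OIR KO 1 or OIR KO 2 (0.0521 and 0.0556), Myc without any RA WT library, OIR KO 2 or OIR WT 1 (0.0569 to 0.125), and Zcchc12 without any RA WT library, OIR KO 1 or OIR KO 2 (0.0535 to 0.104). Birc5 held only without RA WT 2 or OIR KO 3, and Rspo4 only without OIR WT 2 (0.0522 to 0.146 elsewhere). The calls of Cldn5, Plvap and Sox18, also of the endothelial list, were lost without 1 to 5 libraries (0.0507 to 0.113).

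Between OIR KO and OIR WT, limma called 0 of the 112 tested pathway genes against 0.134% of all genes, and 20 of 112 (17.9%) had an unadjusted p under 0.05 against 9.91% of all genes. Of the 26 endothelial genes reported to depend on Norrin or β-catenin, 11 (42.3%) were higher in OIR KO with no overlap between groups, against 9.73% of all genes, and their median log2 difference was 0.33 against 0.00 over all genes. The 25 pan-endothelial markers had 7 higher without overlap and a median of 0.36. Cldn5 and Abcb1a stand in both lists and count among the 11 and among the 7. The lists were chosen with earlier results of these data known, so these shares are no independent support. The part of the endothelial marker level in the difference of the 26 genes was not tested. Slc38a5, an amino acid transporter gene lost in mice without Norrin signalling and named here after its values were seen, was at 3.17, 1.80 and 2.01 FPKM in OIR KO 1 to 3, at 0.899, 0.734 and 0.432 FPKM in OIR WT 1 to 3, and at 1.27, 1.19 and 1.79 FPKM in RA WT 1 to 3. Every OIR KO library exceeded every OIR WT and RA WT library, by log2 1.24 over OIR WT (limma adjusted p = 0.0933) and 0.54 over RA WT (adjusted p = 0.154). Mfsd2a, a lipid transporter gene of the barrier, and Cldn5, the main claudin of endothelial tight junctions, were also named after their values were seen and likewise had no overlap between OIR KO and OIR WT. Mfsd2a differed by log2 0.83 and Cldn5 by 0.78 there, neither called (adjusted p = 0.240 and 0.223). Mean Mfsd2a was 3.4 FPKM in OIR KO, 1.7 FPKM in OIR WT and 4.1 FPKM in RA WT. It was called fallen in OIR WT against RA WT (log2 -1.08, limma adjusted p = 0.0101). Mean Cldn5 was 40.7, 23.7 and 24.3 FPKM in the same order. In the same list Tfrc was the 1 gene lower in OIR KO without overlap (log2 -0.15, adjusted p = 0.654). Slc2a1 was lower with overlap (log2 -0.38, adjusted p = 0.423).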

How the data were processed

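RNA of mouse retinas was sequenced in 9 libraries. Per the labels' protocols, Trizol was used for extraction and an NEBNext Ultra kit for library construction, and per the submitters' processing notes HISAT2 and build GRCm38 were used. No label names the quantifying program, annotation release or strand setting. Deposited values are FPKM from the authors, in a single table with a column for each library. Depth is unknown: among 4521 genes with 1 annotated transcript, 35.6 to 38.0% of low values (up to 20 steps) lay within 0.02 of a whole multiple of the best-fitting step, so reads could not be recovered.

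Values were taken as log2(FPKM + 0.5), which understates changes of low genes. Genes of at least 0.5 FPKM in at least 3 libraries were fitted with limma 3.58.1 (R 4.3.3, trend and robust options), with 1 mean per group over all 9 libraries, after a check on simulated data. Of symbols on several entries (19), the entry of highest mean was used. Positions are from GENCODE M21. Exact permutation tests used scipy 1.17.1. Named genes were the 10 members, called genes of each pathway list (the 3 risen and 3 fallen of smallest adjusted p where more than 6 were called) and the 3 nearest profiles per member. Outside this rule, Wnt7a, Wnt7b, Adgra2, Slc38a5, Mfsd2a, Cldn5 and the uncalled target and feedback genes were named after their values were seen. So were the remaining endothelial calls lost without a library and the 4 fallen pan-endothelial markers. The members and lists were chosen with earlier results of these data known.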

Additional observations from a re-analysis of the deposited data

How the results depend on the processing

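Of the 10 genes, 0 were called between OIR WT and RA WT with 17 of 20 alternatives, and 1, Apcdd1, with quantile normalization, without RA WT 1 and OIR KO 2 together, or without RA WT 1 (range 0 to 1 over single libraries left out). In the other comparisons 0 were called under all 20. Called pathway genes numbered 33 in OIR WT against RA WT, 20 with the replicate block, 20 with the Y-linked covariate and 13 to 34 with a library left out. In OIR KO against RA WT they numbered 13, 8 with the replicate block, 4 without RA WT 1 and OIR KO 2 together and 6 to 16 with a library left out. Relative to endothelial markers, 1, 1 and 5 genes had no overlap (OIR WT against RA WT, OIR KO against OIR WT, OIR KO against RA WT), 6 (OIR WT against RA WT) and 9 (OIR KO against RA WT) with 5 markers, and 1 to 6, 1 to 5 and 5 to 8 with a library left out.

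Uncalled differences near 0 turned sign, and the cause was not tested. With the Y-linked covariate Lrp5 and Lrp6 were at -0.04 and 0.01 in OIR KO against OIR WT. With quantile normalization Ndp was at -0.02 in OIR KO against RA WT. Without RA WT 1 and OIR KO 2 together Fzd4 was at 0.03 in OIR WT against RA WT, Ndp at -0.11 against OIR WT and -0.21 against RA WT in OIR KO, and Ctnnb1 at 0.03 in OIR KO against RA WT. With 1 library left out, ranges in OIR WT against RA WT were -0.07 to 0.03 for Fzd4 and -0.30 to 0.18 for Ndp. In OIR KO against OIR WT they were -0.06 to 0.09 for Ctnnb1, -0.03 to 0.14 for Lrp5, -0.13 to 0.03 for Lrp6, -0.15 to 0.32 for Ndp and -0.25 to 0.07 for Tspan12. In OIR KO against RA WT they were -0.02 to 0.06 for Axin2, -0.23 to 0.10 for Lef1, -0.18 to 0.18 for Ndp and -0.07 to 0.32 for Tspan12. Same-numbered libraries deviated from their group means with correlations from -0.353 to 0.134, so the numbers did not pair them and the replicate block is given for its counts only.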
